A study of Mus musculus with 2 samples.

Results

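Yap1 and Wwtr1 encode YAP and TAZ, the co-activators at the end of the Hippo pathway. They are described here with 3 of the TEAD transcription factors they act through (Tead1, Tead2 and Tead4), with the target genes Cyr61, Ctgf and Ankrd1, and with the angiomotin genes Amot and Amotl2. These 10 genes were taken by name from the 27998 genes counted, and all 10 are in both count matrices. The samples are mouse induced pluripotent stem cells (iPSCs), reprogrammed cells that resemble embryonic stem cells, profiled as 1 droplet library of Srf-deleted cells (Srf Δ/Δ, called knockout or KO) and 1 of cells with intact floxed alleles (Srf f/f, called wild type or WT). Both were grown in medium with serum. How the allele was deleted and how many clones the cells came from are not given in the sources used here. The study asks how loss of serum response factor (SRF), a transcription factor of serum-induced and cytoskeletal genes, affects variation in gene expression and the stability of the cell state. With 1 library per genotype there is no test between genotypes. Each interval printed covers 95% of counting error only, and cells are not replicates.

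The Hippo pathway is a chain of kinases that ends in the phosphorylation of YAP and TAZ, which keeps them out of the nucleus. When the kinases are inactive, YAP and TAZ enter the nucleus, bind TEAD proteins and raise the transcription of genes such as Cyr61, Ctgf and Ankrd1. Angiomotins hold YAP at junctions and on actin filaments. In the early mouse embryo, YAP and Tead4 are known for their role in the outer cells that form trophectoderm, and in embryonic stem cells Tead genes are active together with the pluripotency genes. Cyr61 is also an immediate early gene of the serum response and a known target of SRF.

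The promoters of Cyr61 and Amotl2 are shown because these were the 2 members past 1.5-fold lower in knockout cells. RefSeq promoter windows (GRCm38.p6, from 250 bases before the start of transcription to 50 after it) were found for 7 of the 10 members, and no entry was matched for Ctgf, Tead1 and Tead4. The 250 bases before the start are printed 5′ to 3′ on the gene's strand, with capitals for the TEAD motif GGAATG or its reverse complement CATTCC.
Cyr61 promoter, chr3:145649986-145650235, minus strand: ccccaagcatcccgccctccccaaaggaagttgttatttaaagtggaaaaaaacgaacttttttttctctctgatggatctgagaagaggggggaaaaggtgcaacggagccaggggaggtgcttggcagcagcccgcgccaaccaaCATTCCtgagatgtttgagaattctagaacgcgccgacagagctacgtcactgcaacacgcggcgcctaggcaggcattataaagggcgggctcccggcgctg
Amotl2 promoter, chr9:102717554-102717803, plus strand: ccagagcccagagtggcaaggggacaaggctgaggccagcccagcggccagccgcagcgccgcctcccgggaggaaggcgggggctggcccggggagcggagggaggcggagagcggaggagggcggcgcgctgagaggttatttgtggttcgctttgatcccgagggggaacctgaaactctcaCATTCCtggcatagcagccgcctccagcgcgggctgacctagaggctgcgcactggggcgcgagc
The motif begins 103 bases before the Cyr61 start and 65 bases before that of Amotl2. Searched on both strands of the 300-base windows, it was found for 5 members, the others being Yap1, Wwtr1 and Ankrd1, and the windows of Tead2 and Amot did not hold it. It occurs in 14.7% of all 32851 windows of this length. The windows of Amotl2, Amot and Ankrd1 lie wholly inside the gene spans given below. Their starts are thus internal to those spans, and the bases before the spans were not searched. The CArG box, the motif that SRF binds, was in none of the 8 windows of members and in 1.63% of all windows. With a motif this rare and windows this short, its absence cannot tell whether SRF binds near these genes. A match is a description of the sequence and not a shown binding site.

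The knockout library held 1073 cells with a median of 20605 unique molecular identifiers (UMIs, each standing for 1 captured transcript), and the wild-type library held 954 cells with a median of 25907. The 2 libraries shared 2 cell barcodes. Cells with at least 1000 detected genes, 1 to 10% mitochondrial counts and under 5 UMIs over the fibroblast genes Col1a2, Col3a1 and Acta2 were kept, which left 731 knockout and 893 wild-type cells. The lower mitochondrial limit was failed by 246 knockout and 17 wild-type cells, and the upper one by 73 and 33. Some cells failed more than 1 limit. Of the kept knockout cells, 94 carried at least 10 UMIs over 8 genes of primitive endoderm (Gata6, Gata4, Sox17, Pdgfra, Dab2, Cubn, Lrp2 and Amn) and are called endoderm-gene cells. The remaining 637 knockout cells were set against the 890 wild-type cells below that limit, which 3 wild-type cells passed. The label held by its markers, since Pou5f1 was detected in 99.2% of these 637 knockout cells and in 99.0% of the 890 wild-type cells. All 10 pluripotency markers were detected in each group, with a summed level of 9643 CPM (UMIs per 1000000 UMIs of the group) in the 637 knockout cells, 12781 CPM in the wild-type cells and 4515 CPM in the endoderm-gene cells. Chromosome 8 genes took a raised part of the UMIs (over 1.2 times the wild-type median of that share) in 48.2% of the 637 knockout cells, 64.9% of the endoderm-gene cells and 9.89% of the wild-type cells. No member lies on chromosome 8.

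Srf checked the genotype labels. It gave 202 UMIs in the 893 wild-type cells (8.68 CPM, interval 7.52 to 9.96) and 3 UMIs in the 731 knockout cells, a log2 ratio of -5.50 (interval -8.01 to -4.15). None of those 3 came from the endoderm-gene cells, where the limit set by 3 counts of the total is 1.33 CPM.

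In knockout cells outside the endoderm-gene group, the genes of the complex itself stayed within 1.5-fold of wild type, while 2 genes downstream of it or tied to it were lower. Cyr61 was 3.40-fold lower and Amotl2 1.68-fold lower. These 2 were the members past 1.5-fold among the 7 that reached a mean of 5 CPM over both groups, where 3.24% of 8371 genes were as much lower. No member was past 1.5-fold higher, against 5.41% of all genes, and the median log2 ratio of all genes was 0.06. Levels are CPM summed over the cells of a group, and log2 ratios were taken with 0.5 counts added to each sum.

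Yap1 (chr9:7931999-8004596), the co-activator YAP, was at 33.5 CPM in wild-type cells (interval 31.2 to 35.9) and 36.0 CPM in knockout cells (33.1 to 39.1). The log2 ratio was 0.11 (-0.05 to 0.26), so both groups overlapped in their intervals. Wwtr1 (chr3:57455649-57575910), which encodes TAZ, was at 16.9 and 14.5 CPM, a log2 ratio of -0.22 (-0.46 to 0.02). The intervals of the 2 co-activators thus held 0, but that of Wwtr1 left out the all-gene median of 0.06. With other scalings of the totals (TMM and median of ratios), Wwtr1 stood at -0.29. Once cells of raised chromosome 8 share were left out, Yap1 stood at 0.25 and Wwtr1 at -0.12.

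The DNA-binding partners were as close to wild type. Tead1 (chr7:112679318-112906807) was at 36.2 CPM in wild-type and 39.9 CPM in knockout cells, a log2 ratio of 0.14 (-0.01 to 0.29). Tead2 (chr7:45215753-45233644) was at 109 and 117 CPM, a log2 ratio of 0.10 (0.01 to 0.19). Its interval left out 0 but held the all-gene median. Tead2 overlaps Cd37 on the other strand, which had 160 UMIs in the kept cells of both libraries against 4651 of Tead2. Tead4 (chr6:128224288-128300823), the TEAD known from trophectoderm, was at 6.81 and 7.46 CPM, a log2 ratio of 0.13 (-0.22 to 0.48). Once cells of raised chromosome 8 share were left out, Tead1 stood at 0.29, Tead2 at 0.06 and Tead4 at 0.31, still within 1.5-fold. Markers of trophectoderm, 6 of 7 detected in each group with Elf5 at 0, summed to 15.5 CPM in wild-type and 9.41 CPM in knockout cells.

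Cyr61 (chr3:145646976-145649981, also named Ccn1), a secreted matrix protein and a standard readout of YAP and TEAD, differed most among the 7 members that reached the minimum mean. Wild-type cells held 674 UMIs of it (29.1 CPM, interval 26.9 to 31.3) and the 637 knockout cells held 136 (8.53 CPM, 7.16 to 10.1), with no overlap of the intervals. The log2 ratio of -1.76 (-2.05 to -1.50) was the 18th lowest of 8371 genes. In wild-type cells 29 of the UMIs came from 1 cell, and without that cell the level was 27.8 CPM. Without the cells of raised chromosome 8 share the log2 ratio was -2.14, so the difference was as large there.

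Ctgf (chr10:24595442-24598683, also named Ccn2), the close relative of Cyr61, pointed the same way at a low level. Its 103 UMIs in wild-type cells made 4.44 CPM (3.63 to 5.39) and its 41 UMIs in knockout cells 2.57 CPM (1.85 to 3.49). The log2 ratio was -0.78 (-1.35 to -0.25), but the mean lay below 5 CPM and Ctgf is in no count of members past 1.5-fold.

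Ankrd1 (chr19:36111961-36120099), a nuclear ankyrin-repeat protein, came almost wholly from 3 wild-type cells. It gave 35 UMIs in 5 wild-type cells and 1 UMI in the 637 knockout cells, a log2 ratio of -4.02 (-9.93 to -2.02). Of the 35 UMIs, 33 lay in 3 cells with 13, 12 and 8 each. These 3 cells also held 83, 81 and 69 UMIs over a list of 10 fibroblast markers, although they passed the limit on 3 of those genes, and 0, 5 and 1 UMIs of Pou5f1. When the 8 wild-type and 4 knockout cells with at least 10 UMIs over that list were left out, 2 wild-type UMIs and 1 knockout UMI remained and the log2 ratio was -0.20. The same step left Cyr61 at -1.75, Ctgf at -0.78 and Amotl2 at -0.75. Ankrd1 therefore gave no value for iPSCs beyond a few UMIs.

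Of the angiomotin genes, Amotl2 was lower and Amot was too low to call. Amotl2 (chr9:102716672-102733418), a scaffold protein that binds YAP and is also listed as a YAP target, gave 427 UMIs in wild-type cells (18.4 CPM, 16.7 to 20.2) and 174 in knockout cells (10.9 CPM, 9.35 to 12.7). The intervals did not overlap, and the log2 ratio of -0.75 (-1.02 to -0.50) was the 138th lowest of 8371. Its counting interval ran across the 1.5-fold line. Amot (chrX:145446425-145505181), the founding member of that family, gave 33 UMIs in wild-type cells (1.42 CPM, 0.98 to 1.999) and 55 in knockout cells (3.45 CPM, 2.60 to 4.49), below the minimum mean. Its log2 ratio was 1.27 (0.63 to 1.95). Of those 55 UMIs, 17 came from the 15 cells with 5 to 9 endoderm-gene UMIs, and in the 439 knockout cells with none the level was 2.56 CPM (1.69 to 3.72).

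**Figure D1:**
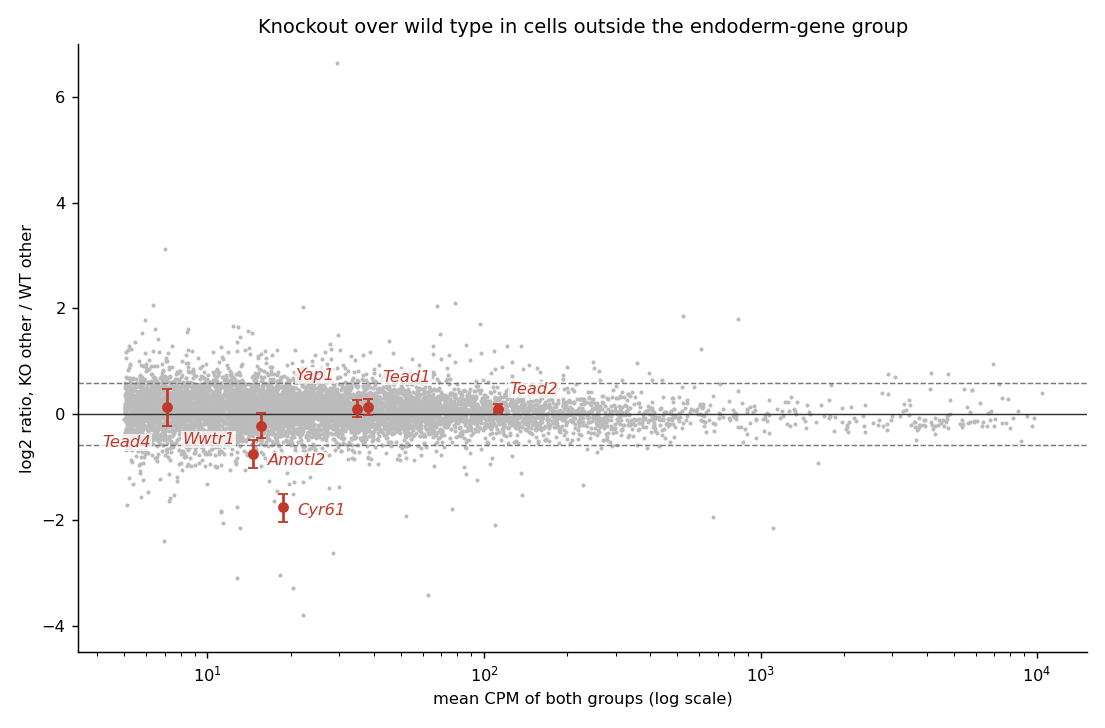
Each grey point is 1 of the 8371 genes that reached the minimum of 5 CPM. The horizontal axis is the mean CPM of both groups on a log scale and the vertical axis the log2 ratio of the 637 knockout cells over the 890 wild-type cells. The 7 members that reached the minimum are red with 95% counting intervals, and dashed lines mark 1.5-fold. Cyr61 at -1.76 and Amotl2 at -0.75 lie below the lower line, and the other 5 lie between -0.22 and 0.14.

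Over all 731 and 893 kept cells, endoderm-gene cells included, 8 members reached the minimum mean. One was past 1.5-fold lower, against 2.99% of 8472 genes, and 1 was past 1.5-fold higher, against 8.43%. The first was Cyr61, at 29.1 CPM in wild type and 11.3 CPM in knockout, a log2 ratio of -1.37 (-1.60 to -1.14). The second was Amot, at 2.75 CPM in wild type and 46.4 CPM in knockout, a log2 ratio of 4.07 (3.71 to 4.47). Amot reached the minimum mean only through its level in knockout. Amotl2 stood at -0.38 (-0.61 to -0.16) over all kept cells. Yap1 (0.23), Wwtr1 (0.05), Tead1 (0.32), Tead2 (0.10) and Tead4 (0.53) were within 1.5-fold of wild type. The median of all genes was 0.10.

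The endoderm-gene cells differed from the other knockout cells in most members. Of the 8 members that reached the minimum mean, 7 were past 1.5-fold higher, where 28.7% of 8818 genes were as much higher. None was past 1.5-fold lower, against 12.9% of all genes. The median over these 8 was 1.58 on the log2 scale and that over all genes was 0.14. Amot is 1 of the 8 and of the 7, and reached the minimum mean only through the endoderm-gene cells. It was at 350 CPM there and at 3.45 CPM in the other knockout cells. Both groups come from the same library, so this comparison shares its 637 cells with the comparison to wild type. The group was defined by primitive endoderm genes, none of which is a member. Its 2 cells with at least 5 UMIs over 5 macrophage markers, which also carried 28 UMIs of Dab2, held no Amot.

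Amot stood out among them. The 94 cells held 790 UMIs of it (350 CPM, 326 to 375) of the 845 UMIs in all kept knockout cells, and 85 of the 94 carried at least 1 UMI. The log2 ratio to the other knockout cells was 6.65 (6.27 to 7.09), the 29th highest of 8818. Amot thus marked nearly all of these cells and few others. Of the 79 knockout cells with at least 2 Amot UMIs, 72 had at least 10 endoderm-gene UMIs. In wild type, 31 of all 64 Amot UMIs lay in the 1 kept cell with at least 50 endoderm-gene UMIs.

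Amotl2 was at 36.3 CPM (28.9 to 45.1) in endoderm-gene cells. This was above both other groups, with log2 ratios of 1.74 (1.34 to 2.12) to the other knockout cells and 0.99 (0.62 to 1.32) to wild type.

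The co-activators and 2 of the TEAD genes were also higher in the endoderm-gene cells. Yap1 was at 61.6 CPM (51.8 to 72.7), a log2 ratio of 0.78 (0.50 to 1.04) to the other knockout cells. Wwtr1 was at 38.5 CPM (30.9 to 47.5), a ratio of 1.42 (1.04 to 1.77). Among TEAD genes, Tead4 differed most, at 26.1 CPM (19.9 to 33.7) and a log2 ratio of 1.81 (1.33 to 2.27). Tead1 was at 82.0 CPM (70.6 to 94.7) and a ratio of 1.04 (0.80 to 1.28). Tead2 was at 117 CPM (104 to 132), a ratio of 0.01 (-0.18 to 0.20). It was thus the member at about the same level in wild-type, other knockout and endoderm-gene cells. Trophectoderm markers summed to 39.4 CPM in these cells, with 5 of 7 detected and Elf5 and Krt7 at 0. Their part in the Tead4 result was not tested.

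Summed over the group, Cyr61 was as high in the endoderm-gene cells as in wild type. It was at 30.6 CPM (23.8 to 38.7), a log2 ratio of 1.85 (1.40 to 2.27) to the other knockout cells and 0.08 (-0.31 to 0.43) to wild-type cells, although Srf was at 0 in these cells. One cell held 16 of the 69 UMIs, and without it the level was 23.7 CPM (17.7 to 31.0), still above the other knockout cells. The 5 cells richest in Cyr61 held 55.1% of its UMIs, so the level describes the sum and not most of the cells. With fibroblast-gene cells kept, the ratio to the other knockout cells was 0.45, under the 1.5-fold line, and without cells of raised chromosome 8 share it was 2.73. Ctgf did not share this: 5 UMIs gave 2.22 CPM (0.72 to 5.17), a log2 ratio of -0.09 (-1.91 to 1.12) to the other knockout cells. Ankrd1 gave 1 UMI. Fibroblast markers summed to 8.42 CPM in endoderm-gene cells and 29.5 CPM in the other knockout cells, with Col1a1, Col3a1, Postn, Lum and Meg3 at 0 in the former, and their part in the Cyr61 result was not tested.

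Set against wild-type cells, 6 members were past 1.5-fold higher in the endoderm-gene cells, where 33.1% of 8779 genes were. They were Amot at 7.92, Tead4 at 1.95, Wwtr1 at 1.199, Tead1 at 1.18, Amotl2 at 0.99 and Yap1 at 0.88 on the log2 scale. The wild-type level of Amot behind that ratio is 1.42 CPM, so its size rests on 33 UMIs. Amot reached the minimum mean here only through the endoderm-gene cells.

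**Figure D2:**
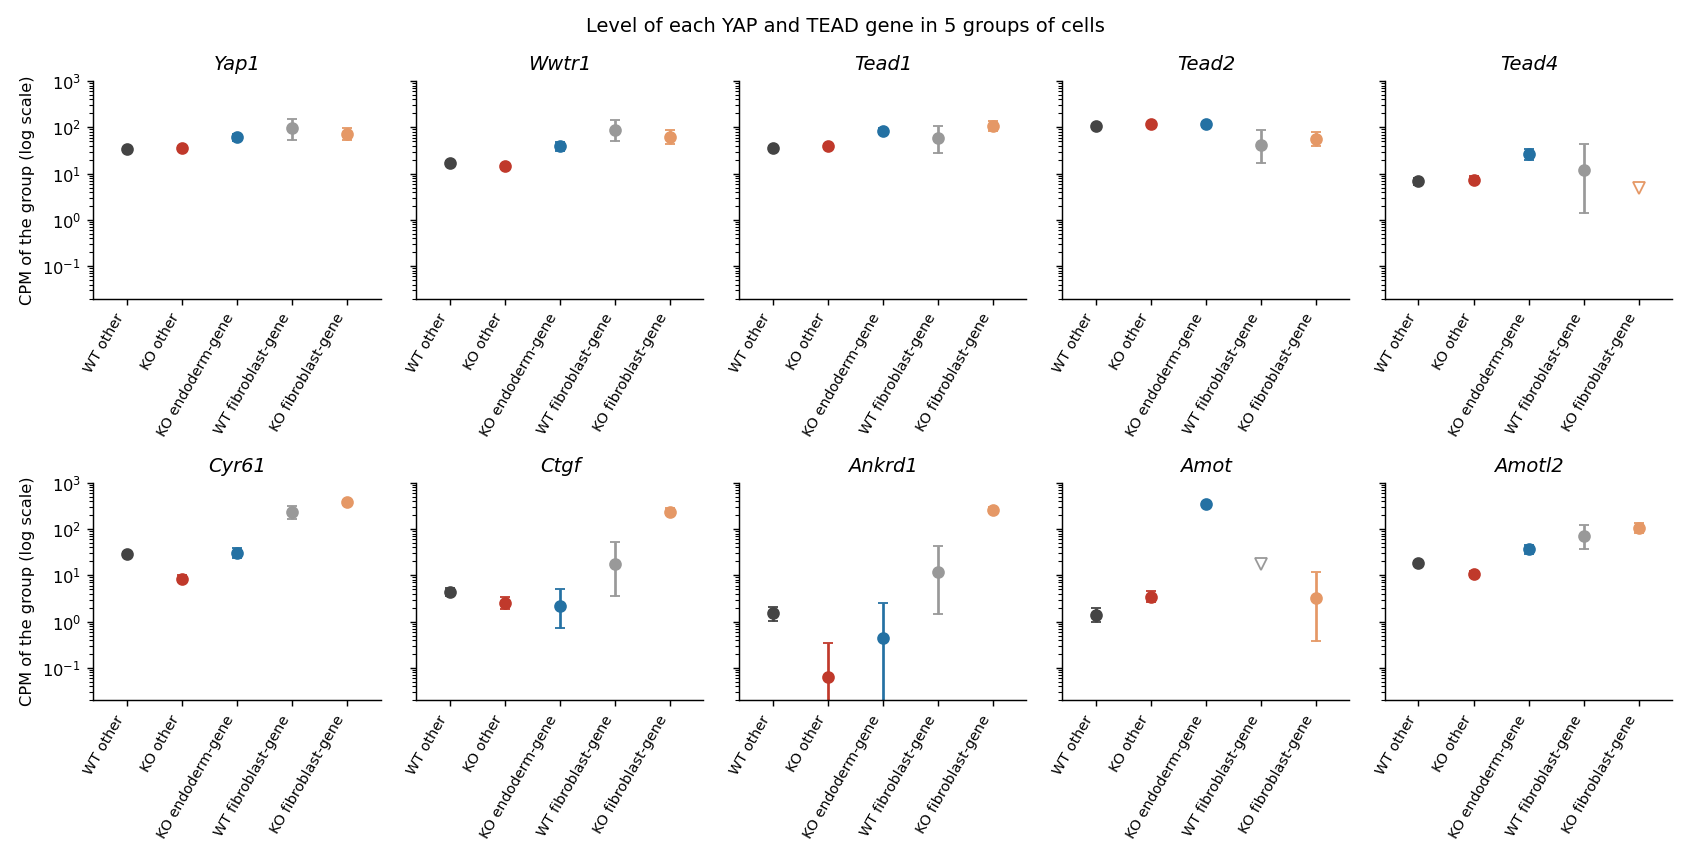
Each panel is 1 member and each point the CPM of 1 group of cells on a log scale, with its 95% counting interval. The groups are 890 wild-type and 637 knockout cells outside the endoderm-gene group, 94 knockout endoderm-gene cells, and 9 wild-type and 22 knockout cells that failed the limit on fibroblast genes. Open triangles mark, for a count of 0, the limit set by 3 counts, and intervals of Ankrd1 run off the axis. Cyr61 is lowest in the 637 knockout cells, at 8.53 CPM, and Amot is at 350 CPM in endoderm-gene cells and at most 3.45 CPM in the other groups with a UMI.

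Within the knockout library, Amot followed the endoderm genes step by step. Cells with 0 endoderm-gene UMIs held it at 2.56 CPM and cells with 1 to 4 at 2.16 CPM. The level was 54.6 CPM (31.8 to 87.4) in the 15 cells with 5 to 9 UMIs, 89.4 CPM in the 22 cells with 10 to 19, 181 CPM in the 23 cells with 20 to 49, and 530 CPM (490 to 572) in the 49 cells with at least 50. In that last step 49 of 49 cells carried an Amot UMI.

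Amotl2 was at 18.7 CPM (8.56 to 35.5) in cells with 10 to 19 endoderm-gene UMIs and at 43.1 and 40.2 CPM in the next 2 steps. Tead4 was at 19.3 CPM (7.07 to 41.9, 6 UMIs) in the 15 cells with 5 to 9 endoderm-gene UMIs, at 8.32 and 10.8 CPM in the next 2 steps, and at 40.2 CPM (29.7 to 53.1) in those with at least 50. Tead1 went from 38.5 CPM in cells with none to 100.1 CPM (83.1 to 119) in cells with at least 50. Cyr61 gave 1 UMI in all 37 cells with 5 to 19 endoderm-gene UMIs. It was at 53.9 CPM (36.4 to 76.9) in cells with 20 to 49, where 1 cell held 16 of its 30 UMIs, and at 31.2 CPM (22.1 to 42.8) in cells with at least 50. The intervals of Cyr61 lay above that of the 637 other knockout cells in the last 2 steps, and that of Tead4 in the last step alone.

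**Figure D3:**
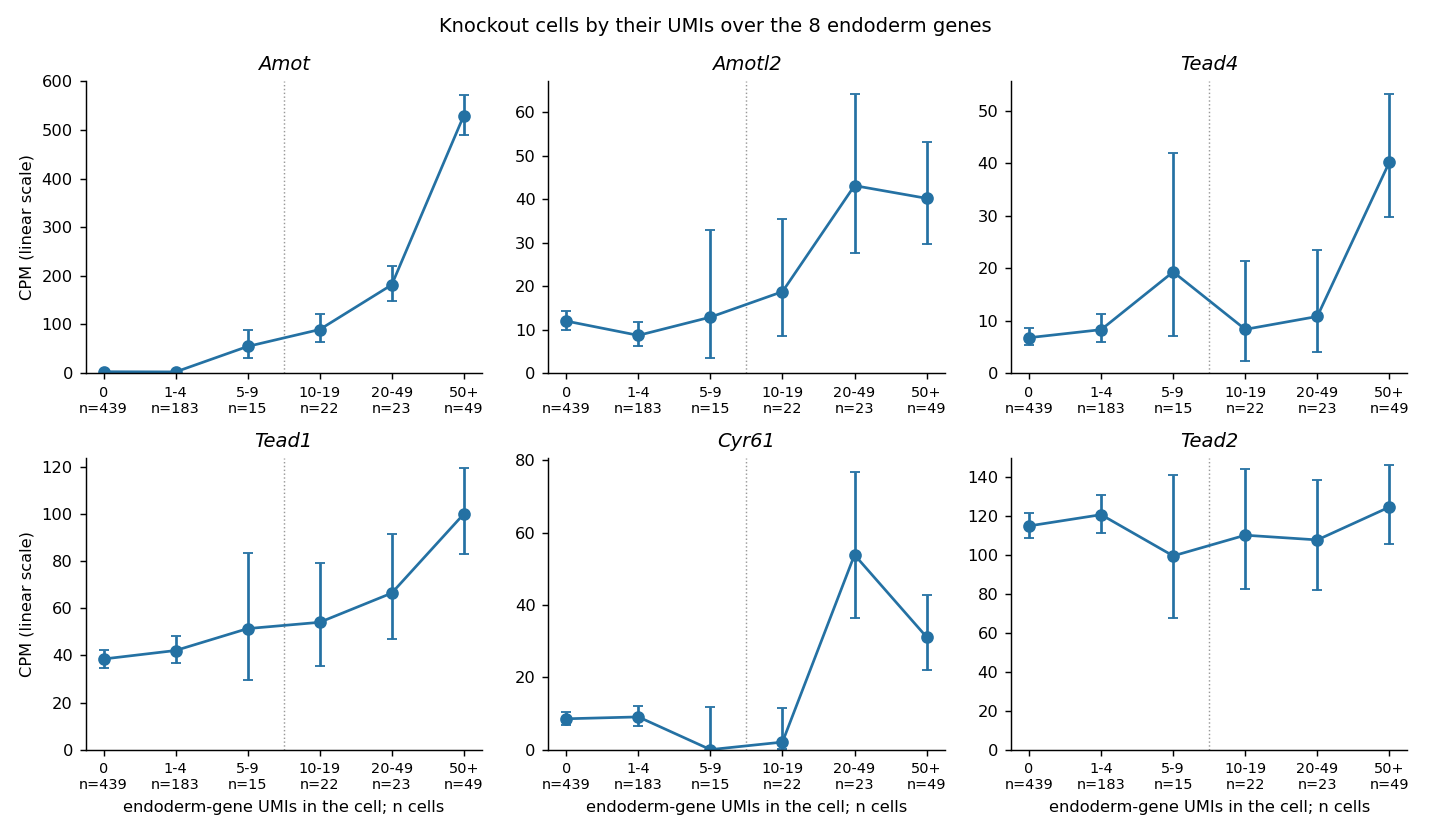
Knockout cells are split by their UMIs over the 8 endoderm genes (horizontal axis, with the number of cells), and points are the CPM of each split on a linear scale with 95% counting intervals. The dotted line marks the limit of 10 UMIs. Amot goes from 2.56 to 530 CPM, Cyr61 is at 0 or 1 UMI in the middle splits, and Tead2 lies between 99.6 and 125 CPM throughout.

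The 22 knockout and 9 wild-type cells over the limit on fibroblast genes expressed several members. Here knockout names the library and not a shown loss of Srf. Srf was at 22.6 CPM in the 22 cells, with 14 UMIs in 5 cells, 10 of them in 1 cell. In the 9 wild-type cells it was at 17.8 CPM from 3 UMIs. The knockout and wild-type groups held Cyr61 at 379 and 231 CPM and Amotl2 at 106 and 71.1 CPM. Ctgf was at 237 and 17.8 CPM and Ankrd1 at 259 and 11.8 CPM in the same cells. In the knockout group, 1 cell held 102 of the 147 Ctgf UMIs and 1 cell held 140 of the 161 Ankrd1 UMIs. With these cells kept, the log2 ratio over all cells was -0.39 for Cyr61, and the sign turned for Ctgf (1.18) and Ankrd1 (2.44). Outside the endoderm-gene group the same step gave -0.45 for Cyr61 and -0.37 for Amotl2, so neither was then past 1.5-fold. Among kept cells outside that group, the 10 fibroblast markers summed to 25.3 CPM in wild type, with Lum at 0, and to 29.5 CPM in knockout, with all 10 detected.

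The share of cells with a UMI was compared after each cell was thinned to 7500 UMIs, which left out 37 shallower cells in each of the 2 groups outside the endoderm-gene group and 1 endoderm-gene cell. Cyr61 was found in 16.4% of wild-type cells (13.99 to 19.1) and in 6.67% of knockout cells (4.81 to 8.97). Unthinned, the shares were 35.4% and 15.1%. Amotl2 was found in 13.2% (11.04 to 15.7) and 7.17% (5.23 to 9.53), or 31.5% and 21.4% unthinned. In both genes, fewer knockout cells carried a UMI, and in the endoderm-gene cells the thinned shares were 12.9% (6.85 to 21.5) for Cyr61 and 25.8% (17.3 to 35.9) for Amotl2.

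Amot was found in 61.3% of endoderm-gene cells (50.6 to 71.2), 2.33% of the other knockout cells and 1.29% of wild-type cells, or 90.4%, 6.59% and 3.60% unthinned. Cells of the knockout library over the limit on fibroblast genes showed it in 1 of 19 (5.26%, 0.13 to 26.0). Their unthinned median depth was 26799 UMIs against 24619 in the 637 knockout cells. So few cells cannot set a background for the low shares outside the endoderm-gene group. Whether those shares are expression was not tested. Unthinned, 6 of the 15 cells with 5 to 9 endoderm-gene UMIs carried Amot. Tead4 was found in 22.6% of endoderm-gene cells (14.6 to 32.4) and 6.50% of the other knockout cells, or 41.5% and 16.6% unthinned, and in none of those 19 cells. Tead2 was found in 57.0% of endoderm-gene cells, 57.2% of the other knockout cells and 53.0% of wild-type cells, or 88.3%, 89.8% and 87.2% unthinned. Pou5f1 was found in 2 of the same 19 (10.5%).

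Cyr61 was spread unevenly over cells. The variance of its thinned counts was 1.91 times the mean in wild-type cells, 1.201 times in the 637 knockout cells and 3.36 times in endoderm-gene cells, where counting alone gives about 1. The value in endoderm-gene cells rests on 12 of 93 cells with a thinned UMI. Unthinned, 1 of those cells held 16 of 69 UMIs, and 1 wild-type cell held 29 of 674. The values without these cells were not computed. The 44 wild-type cells richest in it, which are 5% of cells, held 41.7% of its UMIs. Yap1 stood at 0.98 and 1.002 in the first 2 groups and Amotl2 at 1.01 and 1.02, close to what counting gives. Tead1 stood at 1.25 and 1.43 and Tead2 at 1.21 and 1.07, so Cyr61 was the most uneven of these 5 in wild type but not in the 637 knockout cells. Amot in endoderm-gene cells stood at 7.38.

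Other genes of the pathway were taken as a list of 27 kinases, adaptors and regulators of the Hippo pathway and a list of 22 YAP targets that includes Cyr61, Ctgf, Ankrd1 and Amotl2. Lats2 and Ptpn14 are in both. In the 637 knockout cells, 20 of the 27 Hippo genes reached the minimum mean. One was past 1.5-fold higher, Fat1 at 0.77 (0.60 to 0.94), an atypical cadherin upstream of the kinases. None was past 1.5-fold lower, where 5.41% of all genes were as much higher and 3.24% as much lower, and the median was 0.14 against 0.06 for all genes. Fat1 lies on chromosome 8, and its log2 ratio was 0.54 once cells with a raised share of that chromosome were left out. The other 19 were within 1.5-fold, from Taok3, a kinase, at -0.51 (-0.81 to -0.21) to Mob1b at 0.51 (0.21 to 0.81). Sav1, an adaptor of the core kinases, stood at 0.51 (0.23 to 0.79), Taok2 at 0.49 (0.21 to 0.78), and the core kinases Stk4 and Stk3 at -0.07 (-0.27 to 0.14) and -0.11 (-0.48 to 0.26).

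Of the 22 targets, 7 reached the minimum mean in this comparison. Cyr61 and Amotl2 were past 1.5-fold lower and 1 was past 1.5-fold higher, Fjx1 at 1.43 (1.04 to 1.83), a kinase of the Golgi. Fjx1 was at 3.58 CPM in wild type and reached the minimum mean only through its level in knockout. Over all genes these shares were 3.24% lower and 5.41% higher. The median was 0.16. The remaining 4 were Ptpn14 at 0.33, Arhgef17 at 0.23, Gadd45a at 0.16 and Asap1 at -0.01, so apart from Cyr61 and Amotl2 no target with the minimum mean was past 1.5-fold lower. F3, named here after its values were seen, missed the minimum with 4.75 CPM and stood at -0.88 (-1.38 to -0.43), from 53 UMIs in knockout against 143 in wild type. Over all kept cells, 3 Hippo genes were past 1.5-fold higher, Mob1b at 0.75, Fat1 at 0.69 and Ptpn14 at 0.64. These are 3 of 20 genes, where 8.43% of all genes were as much higher, and none was past 1.5-fold lower. The median was 0.22 against 0.10 for all genes. Of the 8 targets with the minimum mean, Fjx1 at 1.47 and Ptpn14 were higher and Cyr61 was lower, with a median of 0.04. Fjx1, at 3.61 CPM in wild type, again reached the minimum only through knockout. Over all genes these shares were 8.43% higher and 2.99% lower.

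In endoderm-gene cells against the other knockout cells, 21 Hippo genes reached the minimum mean. Of these, 9 were past 1.5-fold higher and 2 past 1.5-fold lower. Over all genes these shares were 28.7% higher and 12.9% lower. The median was 0.29 against 0.14 for all genes. The highest were Rassf1 at 1.77, a scaffold of the kinases, Lats1 at 1.61, the kinase that phosphorylates YAP, and Ptpn14 at 1.53, a phosphatase that binds YAP. The 2 lower were Fat1 and Wtip, both at -0.79. Lats1 and Frmd6, both among the 9 higher, were at 3.95 and 3.14 CPM in the other knockout cells. Both reached the minimum mean only through the endoderm-gene cells. Of 9 targets, 6 were higher and 1 lower, beside the same shares over all genes, with a median of 1.53. F3, the receptor that starts coagulation, was highest at 2.97, followed by Nt5e, an ectonucleotidase, at 2.19 and Cyr61 at 1.85. F3 and Nt5e were at 3.32 and 2.45 CPM in the other knockout cells. They too reached the minimum mean only through the endoderm-gene cells, which favours higher genes in these counts and medians. The same minimum applied to all genes, and the values without such genes were not computed. Gadd45a, a stress-response gene, was lower at -1.84.

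**Figure D4:**
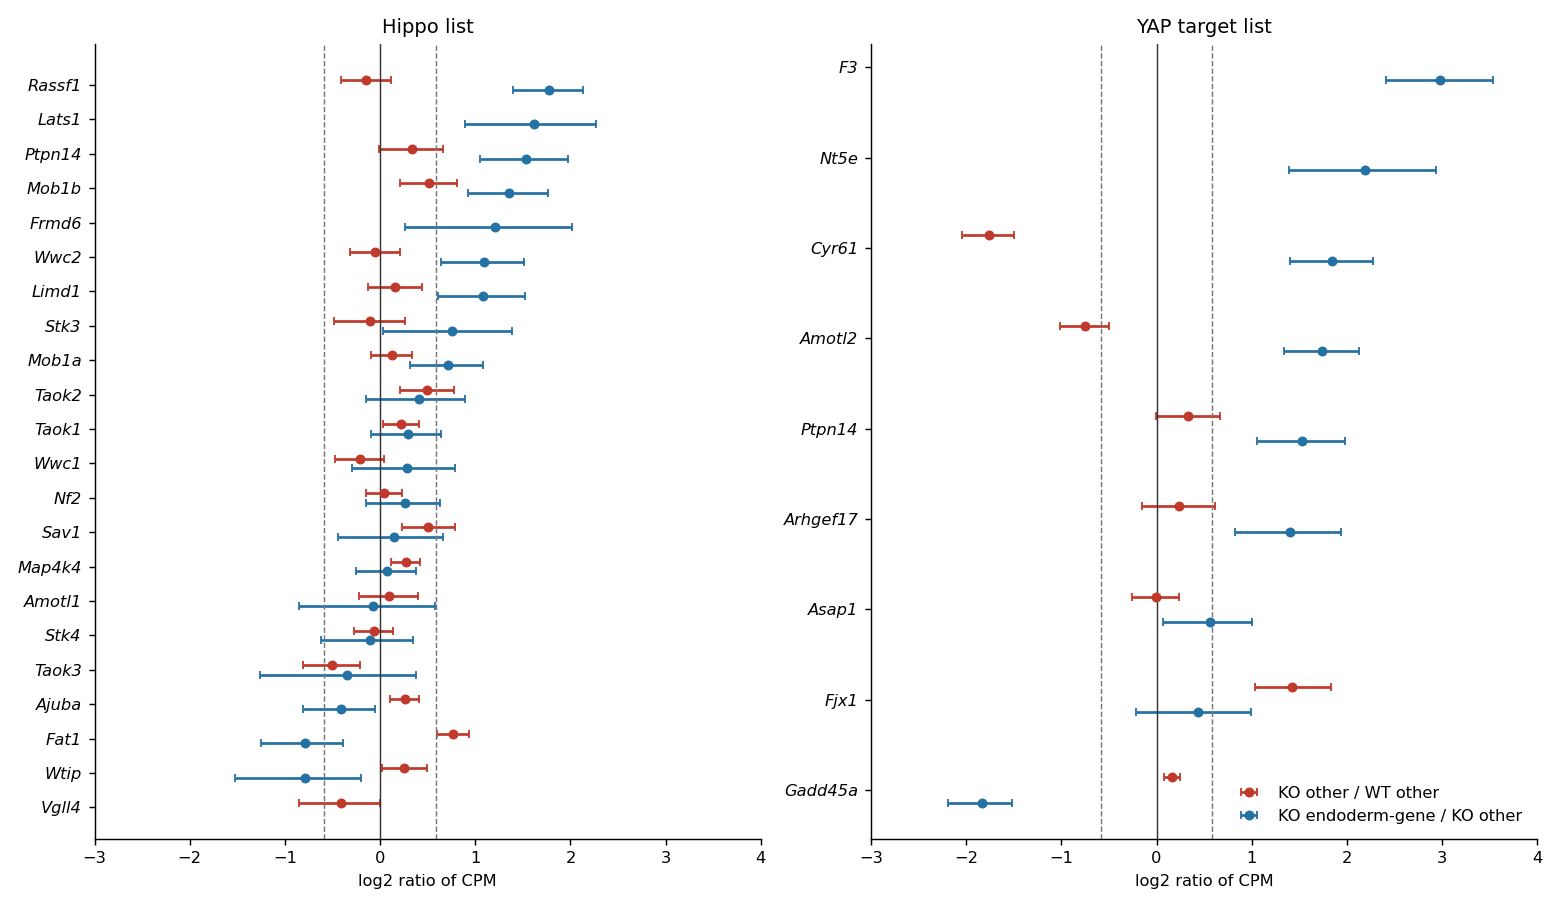
Log2 ratios (horizontal axis) of the listed genes that reached the minimum mean, with 95% counting intervals, for the Hippo list on the left and the YAP target list on the right. Red points compare the 637 knockout cells with the 890 wild-type cells and blue points compare the 94 endoderm-gene cells with the 637, so both use the same 637 cells. Dashed lines mark 1.5-fold. Cyr61 and Amotl2 are the genes past the lower dashed line in red and lie past the upper one in blue.

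Across cells, correlations with other genes were computed for Yap1, Tead1 and Tead2 alone. These had enough thinned UMIs for a comparison over 693 knockout and 856 wild-type cells, and the other members did not. The genes with the highest mean Pearson correlation over the 2 libraries were Aff4, Pabpc1 and Cltc for Yap1 (0.12, 0.11 and 0.11), Malat1, mt-Co1 and Eif4g2 for Tead1 (0.15, 0.14 and 0.14), and Usp50, Bag1 and Uqcrh for Tead2 (0.11, 0.10 and 0.09). Such values in sparse counts are no finding.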

How the data were processed

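Single-cell RNA sequencing of 1 knockout and 1 wild-type iPSC library on the 10x Genomics Chromium platform gave, as deposited, whole-number UMI counts per gene and cell, without normalisation (MatrixMarket integers, per the file headers). The submitters' processing notes name Cell Ranger 2.0.0, Seurat 3.1.1 and mm10, with no role for each. The gene annotation and the rule that called droplets cells are not given in the sources used here, nor whether counting used strand or how shared reads were treated.

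Counts were summed over the cells of a group and scaled to CPM. Ratios were taken on the log2 scale with 0.5 counts added, over genes whose 2 levels averaged 5 CPM or more, and 1.5-fold was the limit for a call. Intervals are exact Poisson for levels, and Clopper-Pearson for shares and, conditional on the sum, for ratios. No doublets were called or removed. Total UMIs were 18203451 over the kept knockout cells and 23270714 over the kept wild-type cells. For shares and spread, cells were thinned without replacement to 7500 UMIs. The chromosome 8 share used autosomal genes up to 500 CPM without ribosomal protein genes. Positions come from GENCODE M21 (GRCm38), which matched 98.7% of the identifiers. Python 3.11.15, numpy 2.4.6, scipy 1.17.1 and, for TMM factors, edgeR 4.0.16 in R 4.3.3 were used, and the ratio step was tested on simulated counts.

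The members, the gene lists and the limits on cells were chosen with earlier results of these data known. All 10 members are named. Of each pathway list up to 3 of the lowest and of the highest past 1.5-fold are named by rule, and other listed genes were added after their values were seen. Alternatives were other limits on cells, other scalings, other minimum levels and other thinning depths. Leaving out cells with macrophage or fibroblast-list genes was added after the data were seen.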

Additional observations from a re-analysis of the deposited data

How the results depend on the processing

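No paired analysis was possible because there is only 1 library of each genotype. Keeping the cells with fibroblast genes moved Cyr61, Ctgf, Ankrd1 and Amotl2 most among the members outside the endoderm-gene group. Over all kept cells it turned Ctgf to 1.18 and Ankrd1 to 2.44, moved Srf to -3.24 and the YAP target median to 0.46, and gave 0 members past 1.5-fold lower and 3 higher in the knockout. In the endoderm-gene cells against the other knockout cells it turned Ankrd1 to -3.89, gave 2 members past 1.5-fold lower and took Cyr61 to 0.45, inside 1.5-fold. Leaving out cells with at least 10 UMIs over the fibroblast list turned Ankrd1 to 0.35 over all kept cells. The rest of this paragraph concerns knockout over wild type in all kept cells. Without endoderm-gene cells 2 members were past 1.5-fold lower and 0 higher, and the target median was 0.16. Without cells of raised chromosome 8 share 2 members were higher, the target median was 0.23 and the Hippo median 0.34. A minimum of 1 CPM gave 2 members lower and no minimum gave 3, with a target median of 0.23, while a minimum of 20 CPM gave a target median of -0.67 from fewer genes. TMM and median-of-ratios scaling moved the median of all genes from 0.10 to -0.01, the target median to -0.069 and -0.068, and the Hippo median to 0.11 under both. Keeping cells under 1% mitochondrial counts gave a Hippo median of 0.10. Unless the alternative's own construction shows it, the cause was not tested. The knockout-minus-wild-type share moved with depth from -8.85 points for Cyr61 to -12.5 at 12000 UMIs and -18.1 unthinned, to -3.80 unthinned for Ctgf, and to 12.1 and 13.7 for Amot. Over 12 settings for the cells outside the endoderm-gene group, Cyr61 ran from -2.14 to -0.45 and Amotl2 from -0.89 to -0.37, the upper value in both with fibroblast-gene cells kept. Levels of a few CPM limit what can be said of Ctgf, Ankrd1 and, outside endoderm-gene cells, Amot.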
